A study of Mus musculus with 6 samples.

Results

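The 41 genes described here encode enzymes of glycolysis, lactate dehydrogenase, the mitochondrial pyruvate carrier, the pyruvate dehydrogenase complex with its regulators, and the tricarboxylic acid (TCA) cycle. They were taken by symbol from a table of 36065 genes, and all 41 were found. RNA had been sequenced from wild-type (WT) mouse embryos at the 1-cell stage, all kept in in vitro culture. One group received DMSO, the solvent control. The CBR group received the compound CBR-5884, an inhibitor of serine metabolism per the labels. The CBR+SAM group received it with S-adenosylmethionine (SAM) added, which donates methyl groups in the cell. Each of the 3 groups had 2 biological replicates, 6 libraries in all; the number of embryos per library, the strain and the doses are not given in the sources used here. The title of the series names minor zygotic genome activation, histone methylation and the male pronucleus as its subject, and the glycolytic and TCA genes lie around the pathway that the compound blocks.

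Glycolysis splits glucose into pyruvate, which lactate dehydrogenase interconverts with lactate and which the mitochondrial pyruvate carrier brings to pyruvate dehydrogenase and the TCA cycle. Serine synthesis branches off glycolysis at 3-phosphoglycerate, and CBR-5884 is known as an inhibitor of phosphoglycerate dehydrogenase, the enzyme at that branch. Mouse zygotes are known to depend on pyruvate and lactate from the medium and to make little use of glucose before the later cleavage stages.

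Several of these genes have processed copies elsewhere in the genome, and the deposited table lists such copies as separate records. Reads that match a gene and its copy cannot be assigned to either from the shared bases alone, so the sequences that separate them are shown for the highest member and for the member with the most copies. Ldhb, on chromosome 6 at 142490249 to 142507957 of mm10, has the copy Gm5514 on chromosome 19 at 21937380 to 21938381, annotated as a processed pseudogene. Of the 1002 coding bases of Ldhb, 982 were identical in Gm5514, and the longest identical run was 148 bases. The paralog Ldha, on chromosome 7, matched Ldhb at 73.9% of aligned coding bases, and the longest identical run was 18. The 90 bases from position 260 of the Ldhb coding sequence, counted from 1 at the start codon, hold 4 of the differences between Ldhb and Gm5514 (A286T, G288C, C297G and C348T, with the Ldhb base first) and 22 differences from Ldha. Sequences are from GENCODE M21 transcripts on mm10, read along the transcript. Capitals mark the differing bases; for Ldhb they mark those that differ in Gm5514.
Ldhb: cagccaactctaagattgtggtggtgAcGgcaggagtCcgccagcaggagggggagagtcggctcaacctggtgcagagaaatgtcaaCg
Gm5514: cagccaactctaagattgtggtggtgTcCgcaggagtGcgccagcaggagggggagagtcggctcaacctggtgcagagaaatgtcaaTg
Ldha: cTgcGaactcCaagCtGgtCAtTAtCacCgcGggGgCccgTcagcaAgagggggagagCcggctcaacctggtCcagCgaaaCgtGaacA

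Gapdh, on chromosome 6 at 125161715 to 125166467, had 77 records that were nearly identical to it. Gm13394 on chromosome 2 at 28933610 to 28934609 differed from its coding sequence at a single base, A346C. Gm7336 on chromosome 7 at 51746647 to 51747878 was identical to it over all 999 coding bases. The 60 bases from coding position 316 show the single difference of Gm13394 in capitals.
Gapdh: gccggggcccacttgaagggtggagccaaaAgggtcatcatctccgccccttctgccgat
Gm13394: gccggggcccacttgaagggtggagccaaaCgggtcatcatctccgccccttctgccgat
Gm7336: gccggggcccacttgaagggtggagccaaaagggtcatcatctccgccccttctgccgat

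The deposited values are abundances per transcript length on a scale close to TPM, so levels can be set side by side between genes. They are RNA levels, and protein levels are not part of these data. The columns summed to between 956209 and 1059424. All 15 oocyte and zygote markers were high enough to test, and their summed level ran from 45290 to 56615. Of 18 cumulus and granulosa cell markers 4 were tested; their sum ran from 520.2 to 629 in 5 libraries and was 246 in CBR+SAM replicate 2, most of it Serpine2. Cyp19a1 averaged 11.7, Nr5a2 9.37 and Cyp11a1 1.00, while Amh did not exceed 0.0258 in any library, Foxl2 did not exceed 0.0129 and Inha stood at 0. Of 15 sperm markers 5 were tested and 4 stood at 0 in every library; the sum of all 15 ran from 45.0 to 52.9, mostly Odf2 (mean 28.5) and Prm2 (12.8). The sum of the 10 blood markers did not exceed 2.40. The leading principal component, with 42.0% of the variance, separated the replicate numbers: the replicate 1 libraries scored -12.2 to -11.5, and replicate 2 scored 9.65 under DMSO, 4.55 under CBR and 21.4 under CBR+SAM, the value furthest out. Log2 differences between the replicates of a group had an SD of 0.54 in CBR+SAM, 0.35 in DMSO and 0.34 in CBR, over 5939 genes. The parts of cumulus cells, sperm and this library in the results were not tested. The changes of Idh3g, Idh3a and Gapdh are given with and without CBR+SAM replicate 2, and changes of other members may also rest on it.

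Levels of the members ran from Ldhb with a mean of 3783 over the 6 libraries to Aldoc with 0.0183. The median over the 41 members was 21.3. Genes were tested where 2 or more libraries reached a value of 1, which held for 38 members and not for Hk1, Aldoc and Idh2. In these bulk libraries fewer cells and less RNA per cell cannot be told apart.

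**Figure D1:**
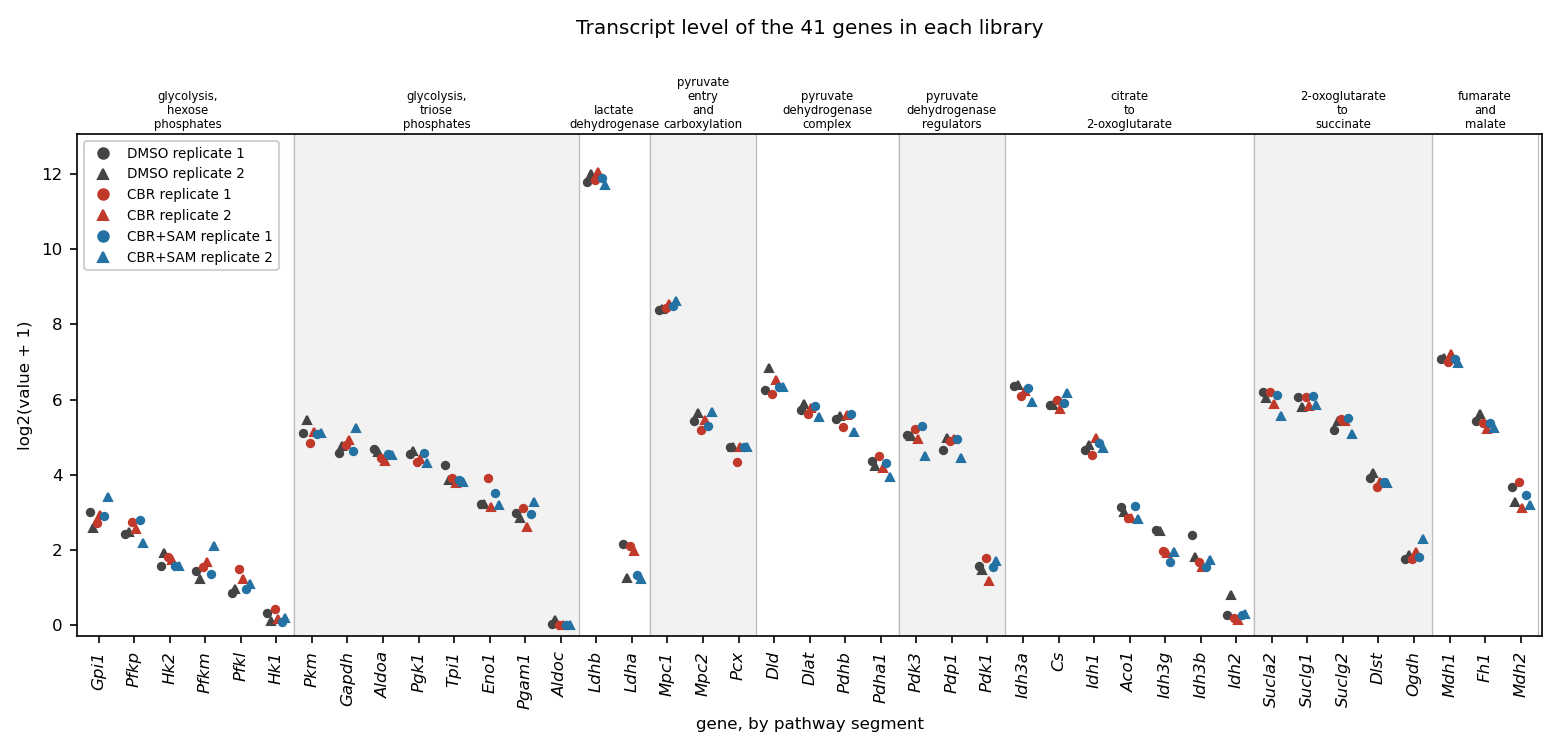
Transcript level of each of the 41 genes in each library, as log2(value + 1) on the vertical axis, with genes grouped by pathway segment and ordered by mean within a segment; colours are groups, circles replicate 1 and triangles replicate 2. Ldhb stands near 12 on this scale in all 6 libraries and Mpc1 and Mdh1 follow, whereas the hexose phosphate genes lie below 4.

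The transcripts for enzymes that act on hexose phosphates were low. Hk2, a hexokinase, which phosphorylates glucose, stood at 1.96 and 2.78 under DMSO, 2.52 and 2.32 under CBR, and 1.95 and 1.98 under CBR+SAM. Hk1, the broadly expressed hexokinase, lay between 0.0594 and 0.334, about 5 to 27 reads. Hk2 therefore made up 88.3% to 97.5% of the summed hexokinase level. Gpi1, which isomerises glucose 6-phosphate, stood at 7.01 and 4.98, 5.55 and 6.60, and 6.53 and 9.59 in the same order of groups; its 2 extremes were DMSO replicate 2 and CBR+SAM replicate 2.

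Phosphofructokinase catalyses the committed step of glycolysis, and its 3 genes summed to a mean of 8.03. Pfkp (platelet type) stood at 4.34 and 4.59 under DMSO, 5.74 and 4.91 under CBR, and 5.89 and 3.58 under CBR+SAM. Pfkm (muscle type) stood at 1.73 and 1.35, 1.94 and 2.22, and 1.58 and 3.33. Pfkl (liver type) stood at 0.815 and 0.943, 1.80 and 1.34, and 0.961 and 1.12. Pfkp was the highest of the 3 in every library. Its share lay between 58.0% and 69.9% in 5 libraries and was 44.6% in CBR+SAM replicate 2, where Pfkm made up 41.5%.

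The transcripts for enzymes of the triose phosphate steps stood higher, with means between 6.86 and 34.2 apart from Aldoc. Pkm, pyruvate kinase, stood at 33.8 and 42.6 under DMSO, 28.0 and 34.0 under CBR, and 33.0 and 33.6 under CBR+SAM. Gapdh, which oxidises glyceraldehyde 3-phosphate, stood at 22.9 and 26.2, 26.5 and 29.6, and 23.8 and 36.8. Aldoa, the aldolase that splits fructose bisphosphate, stood at 24.6 and 23.2, 20.7 and 19.5, and 22.4 and 21.9. The Aldoa libraries were the most alike of the 3, and for Gapdh 1 library, CBR+SAM replicate 2, lay well above the others. Aldoc, the brain-type aldolase, had values of 0.0150 and 0.0946 under DMSO and was listed at 0 in the other 4 libraries. Pgk1, phosphoglycerate kinase, averaged 21.3, Tpi1, triose-phosphate isomerase, 14.2, Eno1, enolase, 9.51, and Pgam1, phosphoglycerate mutase, 6.86.

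Lactate dehydrogenase transcript was almost entirely Ldhb. Ldhb stood at 3553 and 4082 under DMSO, 3668 and 4249.9 under CBR, and 3788 and 3358 under CBR+SAM, and it was the 42nd most abundant of all 36065 genes. Ldha, the subunit typical of glycolytic tissue, stood at 3.48 and 1.38, 3.27 and 2.90, and 1.53 and 1.36. Ldhb made up at least 99.9% of the pair in every library, and its level was 1021 to 2948 times that of Ldha. The variation in this ratio followed Ldha, whose highest value was 2.57 times its lowest, against 1.27 times for Ldhb.

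Records nearly identical to some members also held signal. Whether that signal came from the member or from the copy was not tested. Of the 41 genes, 12 had at least 1 such record, with at least 95% identity over at least 200 bases, and for 4 of them the copies held over 10% of the summed level. Gapdh averaged 27.6 and its copies together 47.9, which is 63.4% of the sum. Gm13394 alone averaged 29.2 and Gm7336 13.5. The Gapdh record was the smaller portion in every library: the share of its copies ran from 50.3% in CBR+SAM replicate 2 to 69.1% in DMSO replicate 2. The Gapdh value in the table is therefore uncertain, as are those of Eno1 (copies 50.4% of the sum, mostly Eno1b) and Pgk1 (10.98%).

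Gm5514 held 12.4% of the sum with Ldhb. It stood at 640.1 and 419.9 under DMSO, 655 and 508 under CBR, and 685 and 299 under CBR+SAM. In each group replicate 2 was the lower, whereas Ldhb was higher in replicate 2 under DMSO and CBR and lower under CBR+SAM. With the copy added, the sum ran from 3657 to 4758, so Ldhb remained the highest member with or without it.

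**Figure D2:**
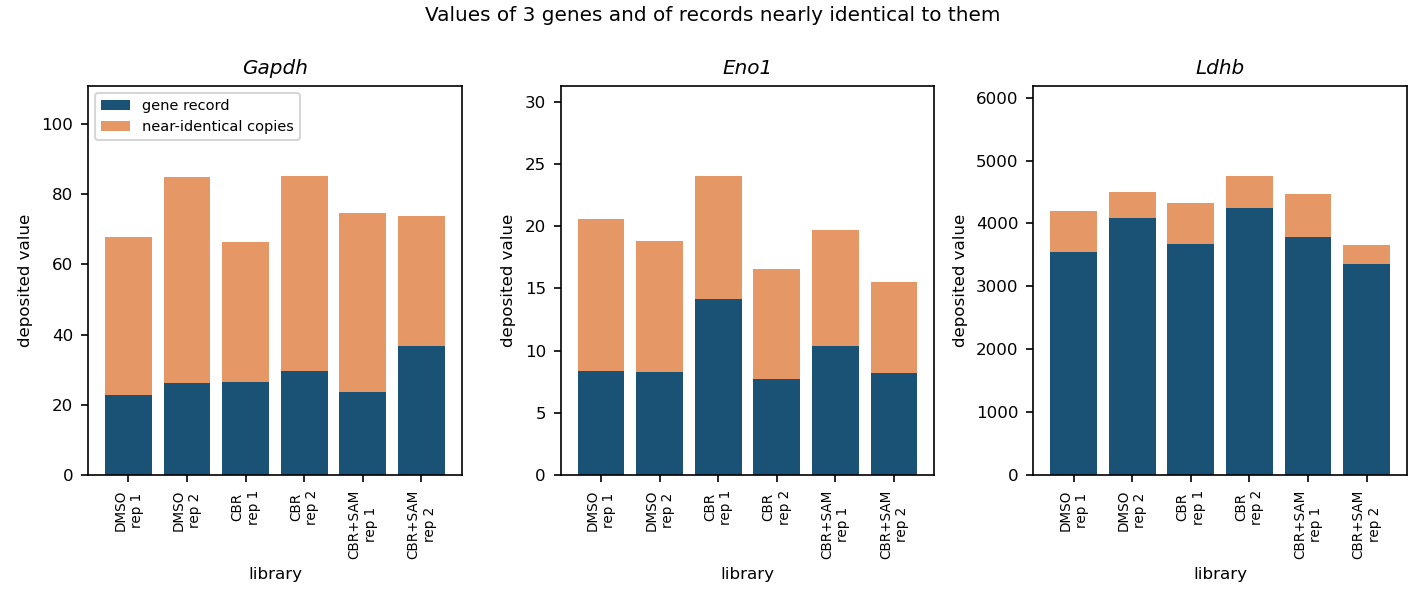
Deposited values of Gapdh, Eno1 and Ldhb (blue) and of the records nearly identical to them (orange), stacked for each of the 6 libraries on linear axes from 0. Most of the Gapdh sum lies in copies in all 6 libraries, and for Ldhb the copy adds 299 to 685.

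Pyruvate enters mitochondria through a carrier of Mpc1 and Mpc2 subunits. Mpc1 was the second most abundant member, at 331 and 339.6 under DMSO, 348 and 369.5 under CBR, and 358 and 397 under CBR+SAM. Mpc2 stood at 42.4 and 49.4, 35.6 and 43.2, and 38.0 and 49.9. Mpc1 exceeded Mpc2 by 6.87 to 9.80 times. Pcx, pyruvate carboxylase, which makes oxaloacetate, stood at 25.6 and 25.5, 19.1 and 25.6, and 25.6 and 25.5; CBR replicate 1 was the only library away from the rest.

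The pyruvate dehydrogenase complex turns pyruvate into acetyl-CoA. Dld, its E3 subunit, which other 2-oxoacid dehydrogenases share, stood at 75.3 and 114 under DMSO, 69.5 and 91.5 under CBR, and 80.3 and 79.9 under CBR+SAM. Dlat, the E2 subunit, stood at 51.3 and 57.6, 47.8 and 54.1, and 56.0 and 45.3. Pdhb, the E1 beta subunit, stood at 43.6 and 46.5, 37.4 and 47.2, and 47.7 and 34.5. These 3 genes overlapped between all groups, and Dld in DMSO replicate 2 was the most distant value. Pdha1, the E1 alpha subunit, was the lowest, with a mean of 18.2 and a range of 14.3 to 21.6, and Dlat exceeded it by 2.21 to 3.25 times.

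The complex is switched off by kinases and switched on by phosphatases. Pdk3 stood at 32.1 and 31.8 under DMSO, 36.4 and 29.8 under CBR, and 38.5 and 21.4 under CBR+SAM. Pdk1 stood at 1.98 and 1.74, 2.45 and 1.27, and 1.94 and 2.27, so Pdk3 made up 90.4% to 95.9% of the pair. Pdp1, a phosphatase that reactivates the complex, stood at 24.1 and 30.3, 28.7 and 29.7, and 29.8 and 20.96. Pdk3 had the widest spread of the 24 members with a mean of at least 10: its highest library was 1.80 times its lowest, against 1.19 times for Mdh1, the narrowest. The median of this ratio was 1.37 over the 24 members and 1.41 over all 5939 genes with a mean of at least 10.

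In the first steps of the TCA cycle, Idh3a, the catalytic subunit of the NAD-dependent isocitrate dehydrogenase, stood at 81.0 and 82.4 under DMSO, 67.4 and 74.1 under CBR, and 78.5 and 59.9 under CBR+SAM. Its regulatory partners were far lower. Idh3b stood at 4.29 and 2.54, 2.18 and 1.92, and 1.90 and 2.29. Idh3g stood at 4.82 and 4.65, 2.94 and 2.78, and 2.18 and 2.83. Idh3a exceeded Idh3g by 16.8 to 36.1 times and Idh3b by 18.9 to 41.3 times, although the enzyme is assembled from all 3 subunits.

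Cs, citrate synthase, stood at 56.6 and 56.5 under DMSO, 63.1 and 53.0 under CBR, and 59.4 and 71.6 under CBR+SAM. Idh1, the cytosolic NADP-dependent isocitrate dehydrogenase, stood at 24.1 and 26.5, 22.0 and 30.8, and 27.6 and 25.1. Idh2, its mitochondrial counterpart, stood at 0.199 and 0.756, 0.139 and 0.0963, and 0.209 and 0.224, about 4 to 25 reads. Idh1 made up 97.2% to 99.7% of the pair. Aco1, the cytosolic aconitase that also serves as an iron sensor, averaged 6.88.

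Among the genes from 2-oxoglutarate to succinate, Ogdh, the E1 subunit of the 2-oxoglutarate dehydrogenase complex, averaged 2.77. Dlst, its E2 subunit, stood at 14.1 and 15.5 under DMSO, 11.8 and 12.9 under CBR, and 13.0 and 12.7 under CBR+SAM, 3.24 to 5.98 times as much as Ogdh. Succinyl-CoA ligase, which yields ATP or GTP according to its beta subunit, was well represented among the transcripts. Its ATP-specific beta subunit Sucla2 stood at 72.0 and 64.4 under DMSO, 72.7 and 58.3 under CBR, and 68.1 and 46.6 under CBR+SAM. The shared alpha subunit Suclg1 stood at 66.2 and 54.7, 65.6 and 56.2, and 67.6 and 56.4. The GTP-specific beta subunit Suclg2 stood at 35.8 and 41.8, 43.6 and 42.2, and 44.9 and 33.1. Sucla2 held 58.0% to 66.8% of the beta subunits, and both Sucla2 and Suclg1 were lower in replicate 2 of every group.

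At the end of the cycle, Mdh1, the cytosolic malate dehydrogenase, stood at 134 and 136 under DMSO, 128 and 148 under CBR, and 134 and 124 under CBR+SAM. Fh1, fumarase, stood at 42.4 and 47.7, 40.2 and 36.4, and 40.4 and 37.2. Mdh2, the mitochondrial malate dehydrogenase, stood at 11.7 and 8.70, 13.1 and 7.74, and 9.95 and 8.12. The cytosolic form exceeded the mitochondrial form by 9.78 to 19.1 times.

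Setting CBR against DMSO asked whether the inhibitor of serine metabolism altered these transcripts. Of the 38 members tested, 0 passed an adjusted p of 0.05 in limma, adjusted by Benjamini-Hochberg across the 12249 tested genes, and of all those genes 0% passed. At an unadjusted p under 0.05 there was 1 member, Idh3g, where 2.12% of all genes reached that level. The median log2 change over the members was 0.01, beside -0.01 over all genes, with 20 members higher and 18 lower. Groups did not overlap for 14 of the 38 members (36.8%), 6 higher and 8 lower under CBR, beside 33% of all genes (15.7% higher and 17.3% lower). Without CBR replicate 1 no member had an unadjusted p under 0.05 and the median was -0.087; it was -0.072 without DMSO replicate 2 and -0.053 without CBR replicate 2.

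Idh3g, on chromosome X at 73778963 to 73786897, averaged 4.74 ± 0.124 under DMSO and 2.86 ± 0.113 under CBR (SD, n = 2). The groups did not overlap, and CBR was the lower. The log2 change of Idh3g was -0.57 (SE 0.20, 95% interval -1.03 to -0.11), with an adjusted p of 1.00 and an unadjusted p of 0.0223 by limma. Leaving out any of the 4 libraries compared gave changes of -0.54 to -0.60 and unadjusted p-values of 0.0638 to 0.0967 by limma. The regulatory partner Idh3b changed by -0.50 (interval -1.09 to 0.09) and the catalytic Idh3a by -0.21 (interval -0.61 to 0.20), also without overlap of the groups. Without DMSO replicate 1 the Idh3b change was -0.21. The values of Idh3g correspond to about 61 to 140 reads per library.

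Among members with a mean of at least 10, those with the largest changes and groups that did not overlap were Dlst, Aldoa and Fh1. Dlst averaged 14.8 ± 0.990 under DMSO and 12.3 ± 0.758 under CBR; the log2 change was -0.24 (interval -0.62 to 0.14). Aldoa changed by -0.24 (interval -0.59 to 0.11) and Fh1 by -0.23 (interval -0.59 to 0.14). None of these intervals excluded 0, and without DMSO replicate 2 the Fh1 change was -0.14. Of the 9 segments, 2 were singled out after their values were seen. In the first, all 5 tested hexose phosphate genes had higher fitted means under CBR, with groups that did not overlap for 3 of 5, beside 15.7% of all genes: Pfkl (log2 change 0.45, interval -0.07 to 0.96), Pfkm (0.28, interval -0.39 to 0.95) and Pfkp (0.21, interval -0.36 to 0.77). Hk2 (0.03, interval -0.47 to 0.53) and Gpi1 (0.03, interval -0.55 to 0.61) hardly changed, and their groups overlapped. None of these genes passed the test, and Pfkm changed by 0.17 without DMSO replicate 2 and Pfkp by 0.11 without CBR replicate 1. Pfkl met the filter for testing only through CBR, where both libraries reached 1 (1.80 and 1.34). Elsewhere only CBR+SAM replicate 2 did, at 1.12. Its place in this count therefore depended on its being high under CBR. In the segment from citrate to 2-oxoglutarate, 4 of 6 tested genes lay lower without overlap of the groups, beside 17.3% of all genes, namely Aco1, Idh3a, Idh3b and Idh3g.

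**Figure D3:**
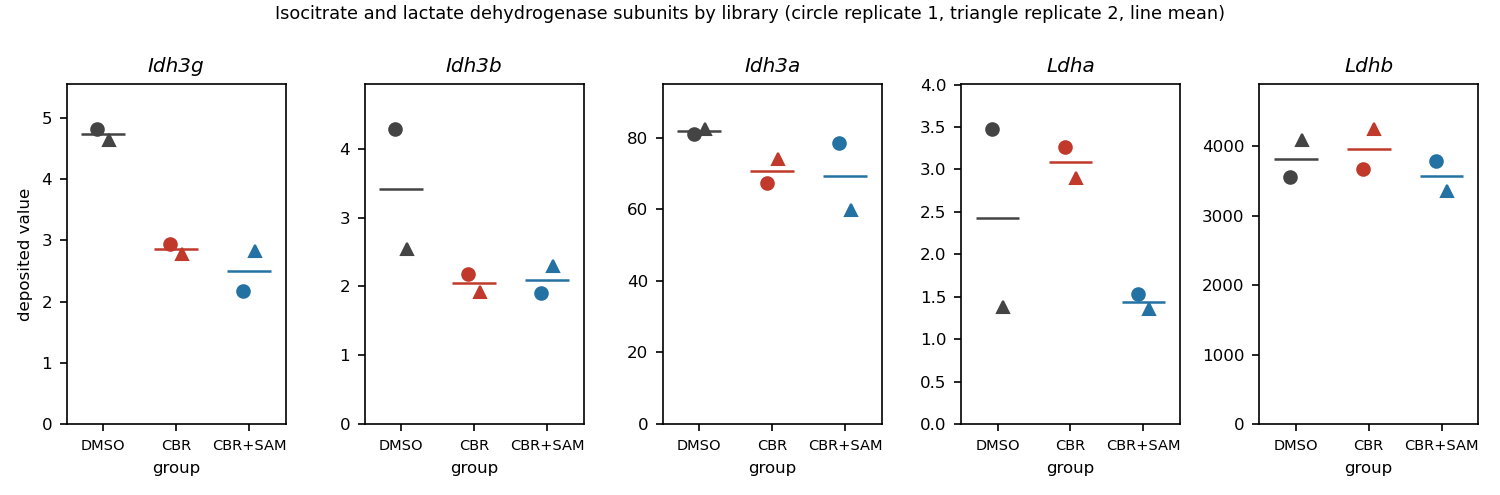
Deposited values of the subunits of NAD-dependent isocitrate dehydrogenase and of lactate dehydrogenase, 1 point per library by group, with the group mean as a line and each axis starting at 0. Idh3g lies near 4.7 in both DMSO libraries and at 2.18 to 2.94 in the other 4, and Ldha spans 1.38 to 3.48 within DMSO alone.

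The precision allowed a bound on the abundant members. For all 24 members with a mean of at least 10, the 95% intervals of the log2 change lay between -1 and 1 in each of the 3 comparisons, so changes of more than 2-fold on the log2(value + 1) scale lay outside them. With any 1 of the libraries compared left out, this held for 20 to 24 of the 24 members; it was 20 for CBR+SAM against DMSO without DMSO replicate 2. The median half-width of these intervals was 0.42. Ldhb changed by 0.05 under CBR (interval -0.32 to 0.42), Mpc1 by 0.10 (interval -0.22 to 0.42) and Mdh1 by 0.03 (interval -0.31 to 0.37).

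Adding SAM to CBR-5884 asked whether the methyl donor shifted the transcripts of inhibited embryos. By limma 0 of the 38 members passed the adjusted threshold, beside 0.00816% of all genes, and 1 member had an unadjusted p under 0.05, beside 3.09% of all genes. That member was Ldha, which averaged 3.09 ± 0.258 under CBR and 1.44 ± 0.122 under CBR+SAM (SD, n = 2). Both CBR+SAM libraries lay below both CBR libraries. The log2 change of Ldha was -0.74 (SE 0.31, 95% interval -1.47 to -0.01), with an adjusted p of 0.988 by limma. Leaving out any of the 4 libraries compared gave changes of -0.68 to -0.81, and Ldha then no longer had an unadjusted p under 0.05 by limma. The DMSO libraries, at 3.48 and 1.38, lay further apart than the CBR and CBR+SAM means. The value of Ldha rests on about 46 to 140 reads per library.

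Groups did not overlap for 4 of 38 members in this comparison (10.5%), beside 27.5% of all genes (15% higher and 12.5% lower). Aldoa was higher, with a log2 change of 0.13 (interval -0.22 to 0.48), and Hk2, Pfkl and Ldha were lower. Pfkl met the filter for testing only through its CBR libraries, the higher group here. The median log2 change of the members was 0.01, as over all genes. Ldhb changed by -0.15 (interval -0.52 to 0.23). It stood at 3788 in CBR+SAM replicate 1 and 3358 in CBR+SAM replicate 2, beside 3668 and 4249.9 under CBR.

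CBR+SAM was also set against DMSO; this comparison shares libraries with both others. By limma 0 of 38 members passed the adjusted threshold, beside 0.00816% of all genes, and 1 had an unadjusted p under 0.05, beside 2.14% of all genes. It was Idh3g, at 2.51 ± 0.464 under CBR+SAM (SD, n = 2), a log2 change of -0.72 (SE 0.20, 95% interval -1.18 to -0.25) with an adjusted p of 1.00 by limma. Without CBR+SAM replicate 2 the Idh3g change was -0.85, and without CBR+SAM replicate 1 it was -0.58. How many members had an unadjusted p under 0.05 depended on the library left out, and no share of all genes is given for such fits.

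The median change of the members in that comparison was -0.10, beside -0.0048 over all genes, with 14 members higher and 24 lower. The median was 0.00 without CBR+SAM replicate 2 and -0.01 without DMSO replicate 2, so it rests on those libraries. Groups did not overlap for 11 of 38 members (28.9%), beside 24.5% of all genes; 3 were higher and 8 lower, beside 12.4% and 12.1% of all genes. Among members with a mean of at least 10 and no overlap of the groups, the largest changes were those of Idh3a at -0.25 (interval -0.65 to 0.16), Tpi1 at -0.24 (interval -0.68 to 0.21) and Fh1 at -0.21 (interval -0.57 to 0.15). Tpi1 stood at 18.3 and 13.6 under DMSO, 14.2 and 12.9 under CBR, and 13.4 and 13.0 under CBR+SAM, where DMSO replicate 1 was the high library. Without that library the Tpi1 change was -0.035, without CBR+SAM replicate 2 the Idh3a change was -0.057, and without DMSO replicate 2 the Fh1 change was -0.13.

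**Figure D4:**
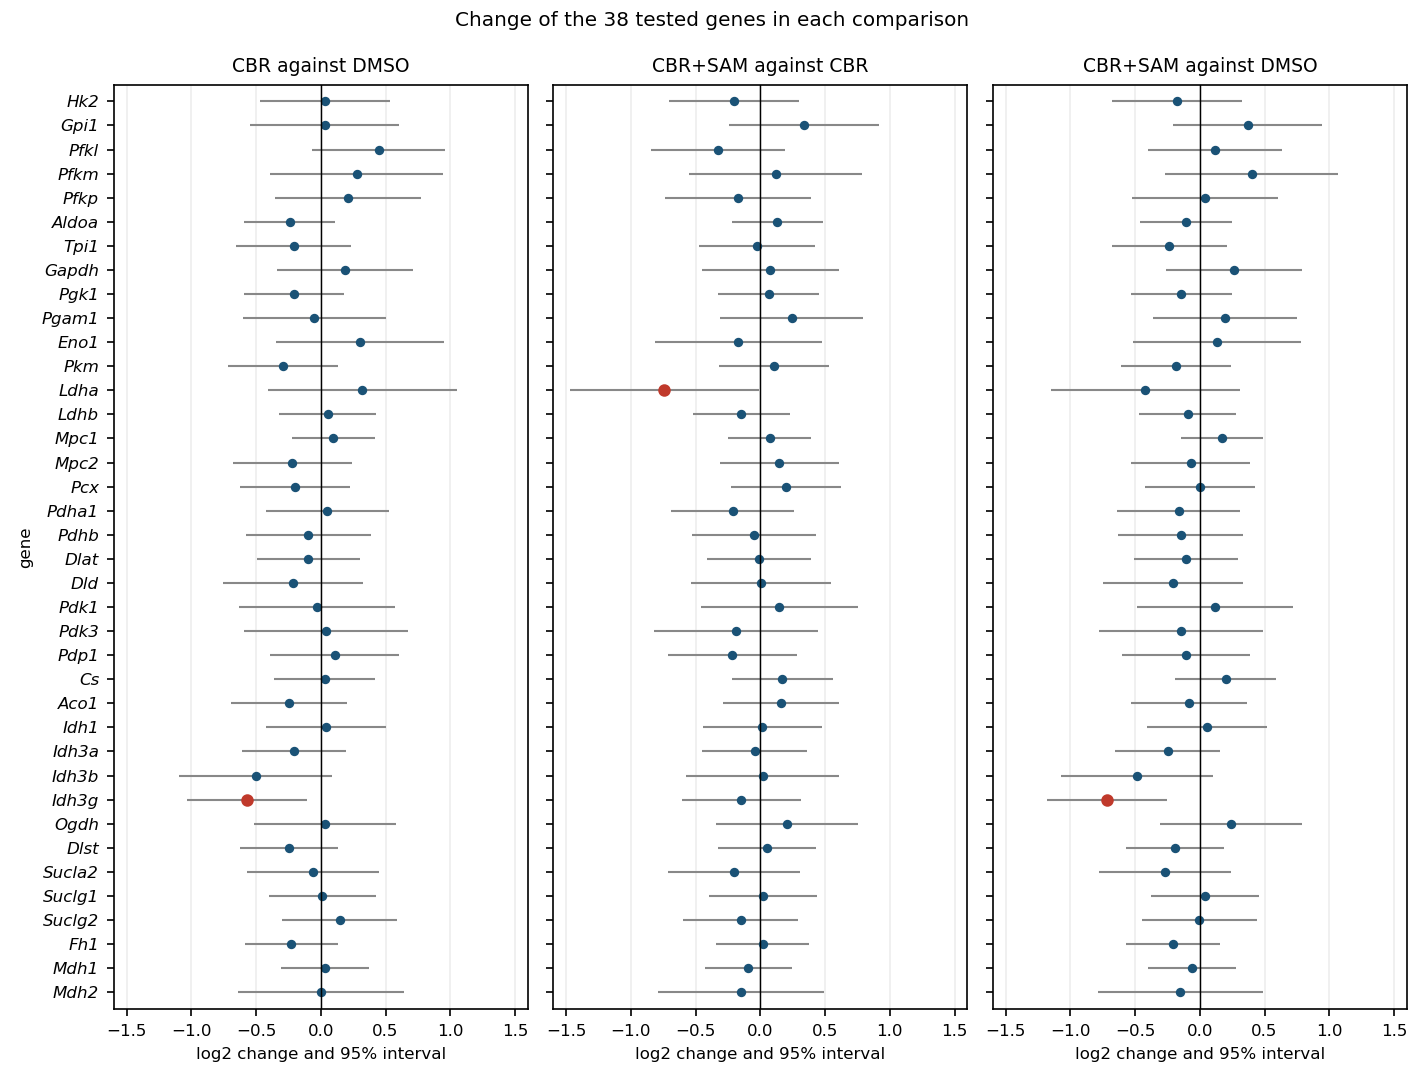
Log2 change of the 38 tested genes in each of the 3 comparisons (point) with its 95% interval (line), from the fit across 12249 genes; red points have an unadjusted p under 0.05 and no point passes the adjusted threshold. The intervals of all other points include 0; Idh3g (in 2 comparisons) and Ldha are the members marked in red.

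Summing Gapdh with its copies left log2 changes of -0.01 for CBR against DMSO, -0.02 for CBR+SAM against CBR and -0.03 for CBR+SAM against DMSO, where the Gapdh record alone gave 0.19, 0.08 and 0.26. The sign of the Gapdh change therefore differed with the treatment of the copies in all 3 comparisons, and all these intervals include 0. Without CBR+SAM replicate 2 the Gapdh record changed by -0.23 against CBR and -0.04 against DMSO. In the same order of comparisons, Eno1 alone gave 0.30, -0.17 and 0.13, and 0.02, -0.18 and -0.16 with its copies. Pgk1 alone gave -0.21, 0.06 and -0.14, and -0.11, -0.03 and -0.14 with its copies. For Ldhb the changes with and without Gm5514 were 0.06 and 0.05, -0.17 and -0.15, and -0.10 and -0.09.

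Other genes of the same pathways were taken from lists of 81 genes, of which 51 were tested. By limma 0 of the 51 passed the adjusted threshold in any of the 3 comparisons, and 2, 1 and 1 had an unadjusted p under 0.05, beside 2.12%, 3.09% and 2.14% of all genes. Groups did not overlap for 19 of the 51 with CBR against DMSO (8 higher, 11 lower), for 13 with CBR+SAM against CBR (8 higher, 5 lower) and for 10 with CBR+SAM against DMSO (3 higher, 7 lower), beside 33%, 27.5% and 24.5% of all genes. For CBR against DMSO 15 of the 51 were higher and 36 lower, with a median log2 change of -0.099, beside -0.0074 over all genes. For CBR+SAM against CBR 29 were higher and 22 lower, with a median of 0.047, beside 0.014. For CBR+SAM against DMSO 16 were higher and 35 lower, with a median of -0.077, beside -0.0048. These directions were not tested. Pfkfb3, which makes the activator of phosphofructokinase, averaged 2.21 under DMSO and 3.77 under CBR, and the log2 change was 0.57 (adjusted p = 1.00 by limma). Slc25a1, the mitochondrial citrate carrier, averaged 6.96 under DMSO, 4.18 under CBR and 4.38 under CBR+SAM, and its log2 change under CBR was -0.62 (adjusted p = 1.00 by limma). Taldo1, transaldolase of the pentose phosphate pathway, averaged 21.5 under CBR and 12.9 under CBR+SAM, a log2 change of -0.70 (adjusted p = 0.988 by limma).

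The highest of these other genes was Bpgm, which makes 2,3-bisphosphoglycerate, at 952 and 1079.6 under DMSO, 1118 and 1362 under CBR, and 1284 and 603 under CBR+SAM. Its level exceeded that of every glycolytic member before lactate dehydrogenase. Me1, the cytosolic malic enzyme, averaged 269, Sdhaf4, an assembly factor of succinate dehydrogenase, 252, G6pdx, the entry enzyme of the pentose phosphate pathway, 145, and Pdhx, a component of the pyruvate dehydrogenase complex, 127. Bpgm was lowest in CBR+SAM replicate 2, the library that stood apart.

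Replicate numbers were shared by the groups, and replicate 2 was compared with replicate 1 within groups. By limma 0 of 38 members passed the adjusted threshold, beside 0.376% of all genes, and 3 had an unadjusted p under 0.05, beside 9.67% of all genes. Mdh2 averaged 11.6 in replicate 1 and 8.19 in replicate 2, a log2 difference of -0.45 (interval -0.80 to -0.09). Sucla2 averaged 70.9 and 56.5, a difference of -0.34 (interval -0.64 to -0.03), and Mpc2 38.6 and 47.5, a difference of 0.29 (interval 0.01 to 0.57). The direction was the same in all 3 groups for 14 of 38 members (36.8%), 5 higher and 9 lower in replicate 2, beside 32.6% of all genes. Without CBR+SAM replicate 2 more members had an unadjusted p under 0.05, but the share of all genes in that fit is not given here.

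**Figure D5:**
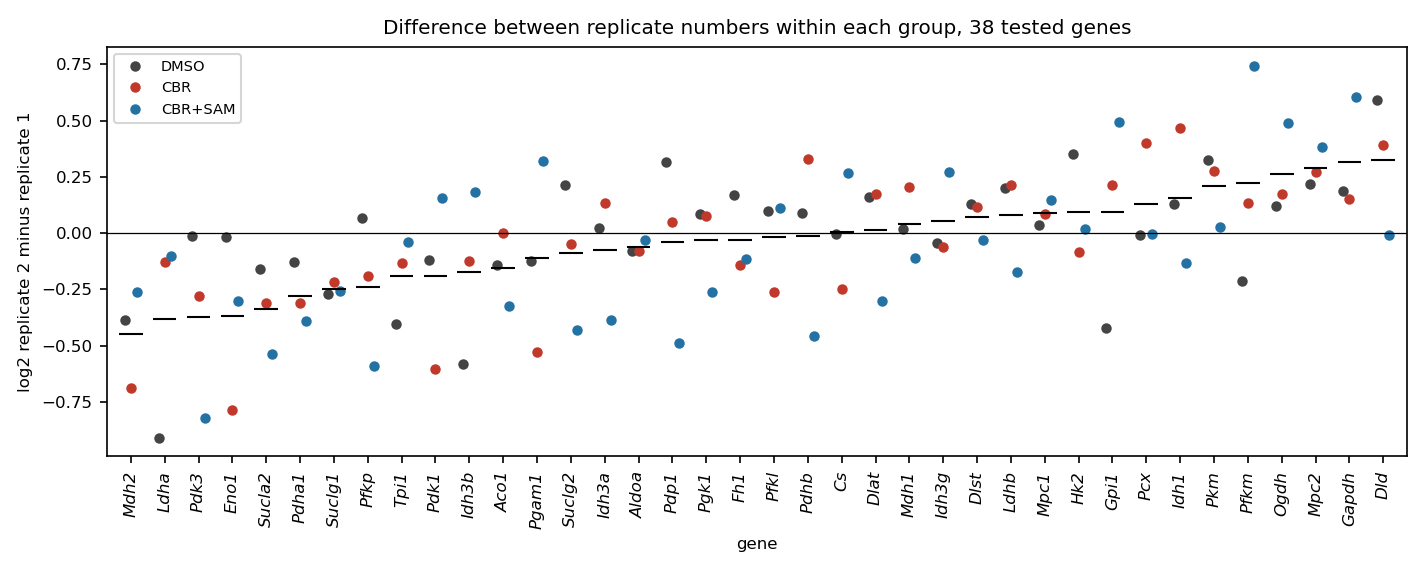
Log2 difference of replicate 2 minus replicate 1 within each group for the 38 tested genes, ordered by the fitted difference (black line); points are the 3 groups. Mdh2, at -0.45, is the lowest, and the CBR+SAM points spread from below -0.75 to about 0.74.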

How the data were processed

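RNA from 6 libraries was amplified with SMART-Seq v4 and prepared for sequencing with Nextera XT. The labels' protocols mention neither strand marking nor molecular identifiers. The authors deposited 1 signal value per gene and library, on a per-length scale. Per the submitters' processing notes the tools were fastp, kallisto and DESeq2 and the build mm10, without versions or roles; the step that gave each column its sum is not given in the sources used here. Read counts were not used. Low values of 2165 genes with a single transcript fell near steps of 0.0384 to 0.0474 per read and 1000 bases. Of values of up to 10 reads, 67.1% to 71.4% lay within 0.1 of a whole number, so read numbers are approximate. The plan named limma for values that are not counts, and a count test only for counts.

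Identifiers were matched to GENCODE M21, 35768 of 36065 to a symbol; of records that share a symbol (Aldoa) the higher was kept. Values were taken as log2(value + 1), which understates changes of low genes. The 12249 genes that reached 1 in 2 or more libraries were fitted in 3 groups with limma 3.58.1 (mean-variance trend, R 4.3.3, 3 residual degrees of freedom), with Benjamini-Hochberg adjustment per comparison and a threshold of 0.05. In simulated data with changes added for CBR against DMSO, the fit recovered 87.3% of 2-fold and 100% of 4-fold changes, with 8.3 false calls per draw. The simulated libraries had equal spread and no replicate effect, unlike these libraries, so the simulation does not bear on those features. The labels call the replicates biological without naming separate litters or cultures, so p-values measure the spread between these samples, which may be technical. With 2 libraries a group, the smallest two-sided permutation p is 0.333, so none was run.

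Near-identical records were found with blastn 2.17.0 from each member's principal coding transcript (at least 95% identity, 200 bases and 50% of the copy). Same-numbered libraries deviated together, with correlations of 0.599, 0.258 and 0.120 over 5939 genes, so the replicate number was taken to pair the libraries and a fit with it as a block was run.

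Members and lists were chosen with earlier results of these data known. Values in every library are given for the 3 highest members of each segment, the isozyme sets, members with an unadjusted p under 0.05, and the 3 with the largest change per comparison (mean of 10 or more, no overlap of groups); of the other pathway genes, the 3 highest per list and those with an unadjusted p under 0.05 could be named. Other members with values (Eno1, Pgk1, Pgam1, Pdha1, Idh3b, Aco1, Ogdh and the copies) complete their segment or were chosen after their values were seen. Alternatives were other pseudocounts, filters and scalings, the block, array weights, protein-coding genes alone, summed copies and leaving out each library. The trimmed-mean and median-of-ratios scalings were computed directly from the values, the first without precision weights. Alternatives for the replicate comparison were chosen after seeing the data.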

Additional observations from a re-analysis of the deposited data

How the results depend on the processing

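The number of members past the adjusted threshold was 0 under all 18 alternatives in each treatment comparison and all 6 in the replicate comparison, and all 194 recomputed log2 changes of the named members kept their direction and their side of the threshold, with a lowest adjusted p of 0.159 by limma. These changes are of members chosen for an unadjusted p under 0.05 or a large change without overlap of groups. Their groups did not overlap in the treatment comparisons. Leaving out a library, the block or another pseudocount, filter or weighting could therefore not turn the direction there. Gapdh, Eno1 and Pgk1 were not among them, and each turned direction in some treatment comparisons with copies summed. All 44 recomputed isozyme shares stayed within their spread. Scaling a whole library cannot change a share within it, and leaving out a library moves a mean share only slightly. The shares could therefore hardly have left their spread, and no conclusion about their stability is drawn from this count. Counts at an unadjusted p under 0.05 moved more. With only genes of a mean of at least 10 tested, the count was 0 in each treatment comparison, since Idh3g and Ldha were then not tested, and the median change of the members with CBR against DMSO was -0.079. For CBR+SAM against CBR the count was also 0 without a filter and with array weights. With libraries scaled to a common sum the median for CBR+SAM against DMSO was -0.18.

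Leaving out 1 library at a time gave, for CBR against DMSO, medians of -0.087 to 0.0067. For CBR+SAM against CBR it gave medians of -0.048 to 0.051, and for CBR+SAM against DMSO medians of -0.20 to 0.0012. The counts of members at an unadjusted p also moved, and no share of all genes is given for these fits. Where a group was left with 1 library, that library was assumed to vary like the others.

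With the replicate block the counts at an unadjusted p under 0.05 remained 1, 1 and 1 for the members, and the number past the adjusted threshold was 0 in each comparison; for the 51 other pathway genes they were 3, 3 and 1. The block changed no call. In the replicate comparison the count was 8 without CBR+SAM replicate 2.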

Other observations

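Got1, the cytosolic aspartate aminotransferase of the malate-aspartate shuttle, was singled out for its pattern; its values were 77.2 and 50.7 under DMSO, 68.0 and 43.4 under CBR, and 75.0 and 42.0 under CBR+SAM, so all 3 second replicates lay below all 3 first replicates. Fbp1, a gluconeogenic phosphatase, had values of 51.0 and 51.7 under DMSO, 42.1 and 43.3 under CBR, and 49.7 and 57.1 under CBR+SAM, with both CBR libraries below the other 4. These values are given as a description without a test.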
